A study of Mus musculus with 12 samples.

Results

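The authors' deposited table lists 2798 CpG positions at which DNA methylation differed between the offspring of treated and control mothers. Of these, 520 (18.6%) were isolated intergenic sites close to a protein-coding gene. They were chosen by position alone. Each lay outside every protein-coding gene span of the RefSeq annotation of GRCm38.p6, at most 50 kb from the nearest such span, with no other listed site within 100 bp. Sites at either end of a protein-coding or long noncoding RNA (lncRNA) gene, reaching 1000 bp outward and 100 bp inward, were left out. The size and direction of the differences took no part in the choice.

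A CpG is a cytosine followed by a guanine, the dinucleotide at which mammalian DNA carries most of its methylation. Most CpGs between genes are methylated in adult tissues, while CpG islands at gene starts are mostly unmethylated. Enhancers, the distal elements through which transcription factors act on genes, lie in such sequence among others and tend to lose methylation where they are active. Reduced representation bisulfite sequencing (RRBS) reads CpG-rich restriction fragments after bisulfite has converted unmethylated cytosines, so it covers sequence between genes sparsely and reaches few CpGs per region there.

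The libraries were made from CD11c dendritic cells of the spleen, antigen-presenting cells that prime T cells, taken from F1 female C57BL/6 mice. In the first group the F0 mothers received corn oil as vehicle for 10 days (6 libraries). In the second they received di(2-ethylhexyl) phthalate (DEHP), a plasticiser, for the same 10 days, at a daily dose of 37 µg per kg (6 libraries). The mothers were then crossed with untreated males. The parent animals were obtained at 6 to 8 weeks of age, and no age of the F1 mice at sampling is given in the labels. All 12 libraries, controls included, carry the label OVA for immunisation status. Nothing in the labels says whether a library is 1 animal or a pool, or how many mothers stand behind each group, and the DNA is described as coming from dendritic cells and spleen tissue.

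For each listed site the authors' deposited table gives 1 difference between the groups, in percentage points of methylation, with a p-value and a q-value. Values per library and read depths were not used here, so no difference below has a spread between replicates, and a value cannot be set against the variation between litters. Sites with a positive difference are read as more methylated after maternal DEHP and are said to have gained methylation. The table does not name the group that was subtracted, so every direction rests on that reading. The q-value in the authors' deposited table was 0 for 363 of the 520 sites and at most 6.37e-06 for the others. The smallest listed difference over the whole table was 25 points, so changes below that size, and CpGs that were not covered, are equally invisible. Defining markers of dendritic cells could not be checked from a list of differences.

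Bases around the sites themselves were not used here, but RefSeq (GRCm38.p6) gives the start windows of genes, from 250 bp before to 50 bp after the start. None of the 520 sites fell in any of the 32851 RefSeq windows. In the windows that held other listed sites, 74 of 74 listed positions were the cytosine of a CpG on the plus strand. The windows of the 4 genes that were nearest to 3 isolated sites each are printed. The genes were chosen by that number of sites, which lay 2.34 to 48.5 kb from them. Each is 300 bp long and is written on the gene's strand, with every CpG in capitals. Sox2 (chr3:34649745-34650044, plus strand) held 27 CpGs, and Fzd10 (chr5:128600856-128601155, plus strand) held 45. Cd209a (chr8:3748935-3749234, minus strand) held 1 and Cts7 (chr13:61358147-61358446, minus strand) held 0.
Sox2: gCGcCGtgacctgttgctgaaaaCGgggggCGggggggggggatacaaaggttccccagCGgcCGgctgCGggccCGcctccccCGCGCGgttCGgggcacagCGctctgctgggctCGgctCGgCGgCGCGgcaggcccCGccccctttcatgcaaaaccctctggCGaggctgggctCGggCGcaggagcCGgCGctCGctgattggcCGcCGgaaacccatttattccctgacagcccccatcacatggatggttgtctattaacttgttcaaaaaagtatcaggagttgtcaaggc
Fzd10: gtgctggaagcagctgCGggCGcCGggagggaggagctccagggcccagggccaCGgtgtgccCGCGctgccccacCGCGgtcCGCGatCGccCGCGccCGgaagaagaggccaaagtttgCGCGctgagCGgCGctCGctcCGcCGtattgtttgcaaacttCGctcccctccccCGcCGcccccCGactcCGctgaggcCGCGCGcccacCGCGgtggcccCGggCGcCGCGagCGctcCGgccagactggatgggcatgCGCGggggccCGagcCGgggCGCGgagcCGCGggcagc
Cd209a: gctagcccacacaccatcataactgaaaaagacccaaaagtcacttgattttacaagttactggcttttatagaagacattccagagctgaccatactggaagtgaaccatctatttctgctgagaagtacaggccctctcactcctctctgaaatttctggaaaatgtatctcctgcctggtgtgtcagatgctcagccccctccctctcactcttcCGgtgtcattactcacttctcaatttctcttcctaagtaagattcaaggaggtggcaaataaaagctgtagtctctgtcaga
Cts7: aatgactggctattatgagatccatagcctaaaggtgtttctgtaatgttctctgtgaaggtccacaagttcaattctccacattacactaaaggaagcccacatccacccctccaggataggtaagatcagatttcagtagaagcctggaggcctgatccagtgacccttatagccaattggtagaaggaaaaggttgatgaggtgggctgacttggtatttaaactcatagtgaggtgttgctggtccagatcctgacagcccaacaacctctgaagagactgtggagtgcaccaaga

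The first pair of gene starts is dense in CpGs and the second nearly free of them. Over the 373 nearest genes with such a window, the median was 14 CpGs, against 13 over all 17492 protein-coding genes with one. The letters CCGG, which read the same on both strands, occurred in 61.9% of the nearest genes' windows and in 61.8% of all of them. By these counts the genes nearest to isolated sites had start windows much like those of other genes.

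Of the 520 sites, 277 gained methylation in the maternal DEHP group and 243 lost it. The share that gained was 53.3%, against 48.4% of all listed sites (1354 of 2798). The exact binomial 95% interval of the members' share was 48.9 to 57.6%. It covers counting error alone and treats the sites as independent, which the close pairs described below are not. The difference between the shares was not tested. Gains had a median of 28.4 points and losses a median of -28.1 points. Sizes without regard to sign ran from 25 to 54.9 points, with a median of 28.4, against 28.7 points over all listed sites. At least 30 points were reached by 181 of the 520 sites (34.8%), against 39.4% of the whole list. At least 40 points were reached by 25 sites (4.81%), against 5.43% of the whole list, and 13 of those 25 gained. Most of the sites thus stood close to the lower limit of the list, as the list as a whole did.

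The 511 isolated sites more than 50 kb from a protein-coding gene are the closest comparison. Their median size was 28.0 points and 47.4% of them gained. Isolated sites inside protein-coding spans (1075 sites) had a median size of 29.1 points and 47.5% gained. Sites with a second listed site within 100 bp (543 sites) had a median of 29.6 points, and 9.76% of them reached 40 points. The medians thus lay between 28.0 and 29.6 points, and the differences between kinds of site were not tested.

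**Figure D1:**
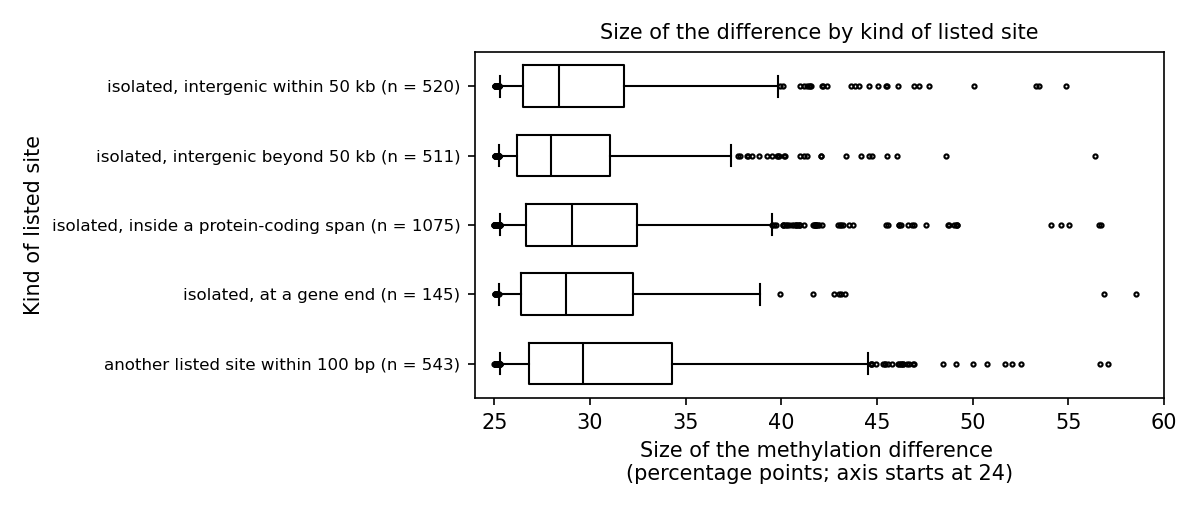
Size of the methylation difference (x axis, percentage points, without sign, starting at 24) for 5 kinds of listed site (y axis). Boxes give the quartiles and median, whiskers the 5th and 95th percentiles and points the sites beyond them. The 520 isolated intergenic sites within 50 kb have a median of 28.4 points, between those of the 511 more distant sites (28.0) and the 1075 sites inside genes (29.1).

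The 520 sites had 458 different nearest protein-coding genes, which is 2.09% of the 21900 in the annotation. Of these genes, 400 were nearest to 1 site, 54 to 2 sites and 4 to 3 sites. Predicted genes were nearest to 47 sites. The distance to the nearest span ran from 1028 bp to 49.4 kb, with a median of 14.9 kb. For 235 sites (45.2%) a second protein-coding gene also lay within 50 kb on the other side, so the nearest gene is a label of place and need not be the gene that the site belongs to.

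To compare the number of sites at different distances, the sequence that the position rule admits was measured. It came to 585.8 Mb on the autosomes and the X chromosome and held 0.888 sites per Mb. At 1 to 5 kb from a span there were 108 sites, or 0.980 per Mb. At 5 to 10 kb there were 76 sites (0.748 per Mb) and at 10 to 20 kb 126 sites (0.893 per Mb). At 20 to 30 kb there were 99 sites, or 1.02 per Mb, the highest density of the 6 bands, and at 40 to 50 kb 43 sites, or 0.713 per Mb, the lowest. The density did not fall steadily away from genes. How many CpGs were covered in each band is unknown, as it is for the gene groups and chromosomes below. A density of listed sites is therefore not a rate of change.

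Direction and size were also much the same at every distance. Between 49.2% (10 to 20 kb) and 56.6% (5 to 10 kb) of the sites gained in each band. The median size lay between 27.6 points (30 to 40 kb) and 29.4 points (40 to 50 kb). For 427 sites the strand of the nearest gene was known from its start window. Of these, 236 lay upstream of the gene and 191 downstream, at 0.946 and 0.902 sites per Mb of such sequence. Gains made up 52.5% of the upstream and 55.0% of the downstream sites.

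**Figure D2:**
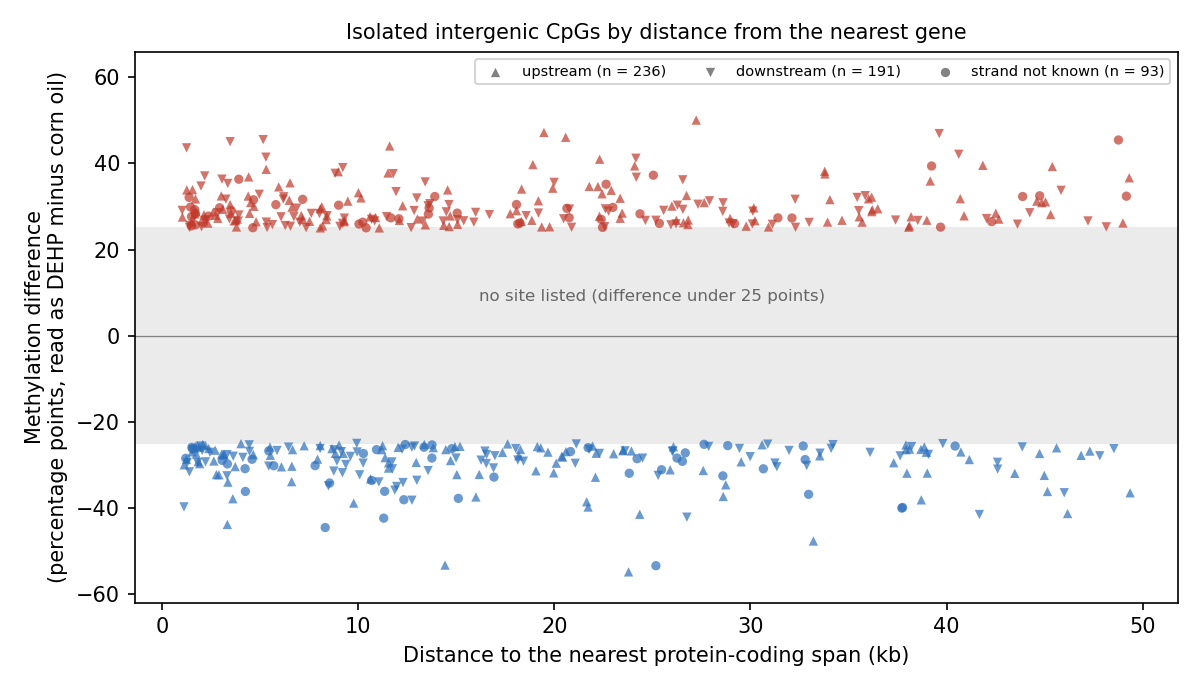
Methylation difference of each of the 520 sites (y axis, percentage points, read as maternal DEHP minus corn oil) against its distance from the nearest protein-coding span (x axis, kb). Red points gained and blue points lost methylation, the marker shape gives the side of the gene, and the grey band holds no listed site. Gains and losses occur at all distances, and the largest loss (-54.9 points) lies 23.8 kb from a gene.

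Although no 2 of the sites were within 100 bp of each other, 82 of the 520 had another listed site more than 100 and at most 1000 bp away, and in 80 of these the other site went in the opposite direction (97.6%). Of the remaining 438, 225 had a nearest listed site of the opposite direction (51.4%). Counted as pairs in which both sites are isolated intergenic sites, there were 41, from 107 to 276 bp apart with a median of 142 bp. In 40 of the 41 pairs 1 site gained and the other lost methylation. Of the listed sites of other kinds with a nearest listed site at this spacing, 194 of 245 also had one of the opposite direction (79.2%), and the difference between the shares was not tested. The alternation had been seen earlier in the same data, so the pairs are no independent support for it.

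The paired differences were similar in size. The sizes within an opposite pair differed by a median of 3.35 points and by at most 17.9. Beside Cemip, which encodes a hyaluronan-binding protein, a loss of -25.5 points at position 84094758 of chromosome 7 stood 124 bp from a gain of 25.5 points. Downstream of Notch1, the gene of a receptor in cell fate signalling, a gain of 26.8 points at 26455729 on chromosome 2 stood 127 bp from a loss of -26.7 points. The least even pair lay upstream of Brd7, a bromodomain gene, with -28.2 points at 88382675 on chromosome 8 and 46.1 points 156 bp further. The lower coordinate lost methylation in 24 of the opposite pairs and gained it in 16. The single pair of 1 direction lay upstream of Etaa1, a gene of the replication stress response on chromosome 11, with gains of 33.2 points at 17963891 and 32.0 points 126 bp further.

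**Figure D3:**
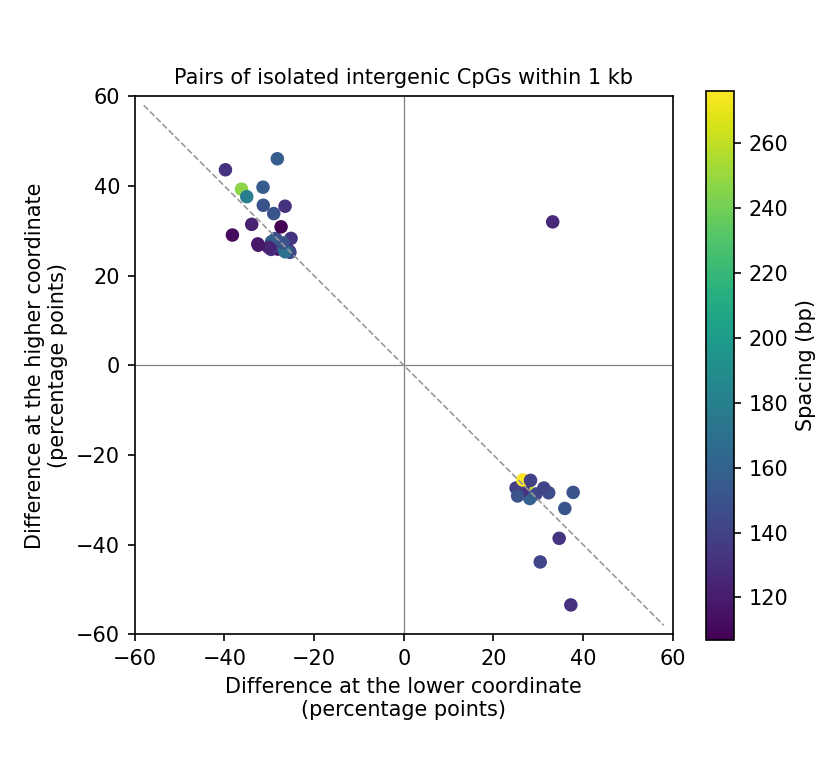
Difference at the higher coordinate (y axis) against that at the lower coordinate (x axis), both in percentage points, for the 41 pairs of isolated intergenic sites within 1 kb. Colour gives the spacing in bp, and the dashed line marks equal sizes of opposite sign. All pairs but that beside Etaa1 fall in the quadrants of opposite direction.

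Single sites and paired sites did not differ much in other respects. Of the 438 sites with no listed site within 1000 bp, 53.4% gained and the median size was 28.3 points. Of the 82 sites with one, 52.4% gained and the median size was 28.6 points. Sizes of at least 40 points were found at 21 of the 438 and at 4 of the 82.

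The 3 strongest losses were -54.9, -53.4 and -53.3 points. The first lay 23.8 kb upstream of Enpp7, the gene of the intestinal alkaline sphingomyelinase, at 118964397 on chromosome 11, inside the noncoding gene Gm35710. The second lay 25.2 kb from Shisal1 at 84508039 on chromosome 15, and a site 131 bp away gained 37.3 points. The third lay 14.4 kb upstream of the olfactory receptor gene Olfr49, at 54297353 on chromosome 14. Cypt1, a testis gene on the X chromosome, had a site at 16489663 with -47.7 points, 33.2 kb upstream, and the nearest protein-coding gene on its other side was 2278 kb away. Losses between -44.6 and -41.5 points lay nearest to the olfactory receptor gene Olfr1331, Echdc2, the testis metalloprotease gene Adam26a, the cytokine gene Lif, the zinc finger gene Zfp64 and Vwa5b1. Outside these 10, and picked out after its value was seen, a site at 92872239 on chromosome 16 lost -41.3 points. It lay 46.2 kb upstream of Runx1, which encodes a transcription factor of blood cell development.

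The largest gain was 50.1 points, at 48065525 on chromosome 17, inside the span of A730006G06Rik and 27.2 kb upstream of 1700122O11Rik. Amtn, the gene of an enamel protein, followed with 47.2 points at 88356638 on chromosome 5, and Rsph3b, a radial spoke gene of cilia, with 46.9 points at 6865094 on chromosome 17. The gain of 46.1 points upstream of Brd7 is the paired site described above. A gain of 45.5 points at 157551205 on chromosome 2 lay 5.16 kb downstream of Blcap, a gene that hosts the imprinted gene Nnat. The other gains among the 10 largest, from 45.4 to 42.1 points, lay nearest to Rap1gds1, the RNA-binding protein gene Celf5, Zfp101, Olfr743 and Spopfm2.

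Sox2 and Fzd10, whose start windows are printed above, are developmental genes with CpG-dense starts, and their 3 sites each lay upstream. Sox2 encodes a transcription factor of stem cells and the nervous system. In the authors' deposited table, a gain of 26.5 points at 34631675 on chromosome 3 and a loss of -27.9 points 133 bp further lay about 18.2 kb before the gene. A gain of 34.6 points at 34644044 lay 5.95 kb before it. All 3 Sox2 sites fell inside Sox2ot, the lncRNA gene that overlaps Sox2. Fzd10 encodes a receptor for Wnt ligands. Its sites on chromosome 5 were a gain of 27.1 points at 128558448, a loss of -26.1 points at 128581796 and a gain of 26.1 points at 128598769, from 42.7 to 2.34 kb before the gene. The second and the third of these fell inside the lncRNA gene Fzd10os. Neither gene's sites had a single direction.

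Cd209a and Cts7, with CpG-poor starts, also had sites of both directions. Cd209a encodes a lectin on mouse dendritic cells related to human DC-SIGN. At about 44.7 kb upstream of it on chromosome 8, 3 sites spaced 141 and 107 bp apart alternated, with 31.2 points at 3793581, -27.4 points at 3793722 and 30.9 points at 3793829. They lay between Cd209a and Cd209e, which was 54.4 to 54.1 kb away on the other side. Cts7 is a placental cathepsin gene of chromosome 13. It had a loss of -26.3 points at 61303934, and on its other side a loss of -36.2 points at 61403333 with a gain of 39.3 points 247 bp further. These sites lay 48.5, 45.1 and 45.4 kb from Cts7. The first was almost as close to Cts8, which lay 48.6 kb away.

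Of the 54 genes nearest to 2 sites, 43 had 1 gain and 1 loss. In 37 of the 54 the sites were within 1000 bp of each other, and 36 of these 37 were mixed. In the other 17 genes the sites were farther apart, and 7 were mixed, 6 had 2 gains and 4 had 2 losses. Both sites gained on either side of Smug1, which encodes a uracil glycosylase of base excision repair (26.9 and 28.7 points), and also on either side of the stress gene Sesn2 (25.3 and 29.3 points). Both lost upstream of Bach1, a repressor gene of the haem oxygenase pathway (-26.0 and -32.0 points, 2130 bp apart). The pairs of opposite direction that were farther apart included Lif, Fgfr1 and Pbx3. Sites 2599 bp apart downstream of Lif had 41.2 and -42.2 points, sites 13008 bp apart beside the growth factor receptor gene Fgfr1 had -32.9 and 36.3 points, and sites beside the homeobox gene Pbx3 had 39.4 and -32.0 points.

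Gene groups were counted among the nearest genes, and each count is read against the 2.09% of all protein-coding genes that were nearest to an isolated site. The lists were compiled with earlier results of these data known, so the counts describe the lists and test nothing. Of the 137 homeobox and patterning transcription factors on the list, 9 were nearest to a site (6.57%), with 11 sites, 6 gains and 5 losses. Their neighbourhoods are wide, with 6.57 Mb admitted by the rule, and held 1.67 sites per Mb against 0.888 over all genes. How many CpGs were covered there is unknown, so the densities may differ through coverage, which was not tested. Besides Sox2, gains stood beside Msx1 (35.4 points), which patterns limbs and teeth, Pitx1 (35.2 points), a hindlimb factor, the endoderm factor gene Foxa2 (28.5 points) and the forebrain gene Otx1 (27.7 points). Losses stood beside Lhx8 (-31.2 points), a forebrain factor, Foxf1 (-30.2 points), a factor of lung and gut mesenchyme, Irx4 (-29.7 points), a heart ventricle factor, and Evx1 (-25.6 points). That these genes as a group carried listed sites within or near their spans had been seen earlier in the same data, and these counts are no independent support for it. The list is also incomplete. Pbx3 (39.4 and -32.0 points), Tlx1 (37.6 points) and Foxe3 (-34.0 points), among others, are not on it, so the counts hold for the listed genes only.

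Genes of the dendritic cell and of its immune tasks were counted in 4 lists. Of 30 genes of dendritic cell identity, 2 were nearest to a site (6.67%). These were Cd209a and Id2, a regulator of dendritic cell development, with 31.9 points at 25119448 on chromosome 12, 23.4 kb upstream. Itgax, the gene of CD11c, was nearest to none. None of 40 genes of dendritic cell activation and antigen presentation and none of 38 genes of the type 2 and allergic axis was nearest to a site. At the background of 2.09%, 0.837 and 0.795 genes of these lists would be, so a count of 0 is close to the background. Of 28 interferon response genes there was 1 (3.57%), where the background gives 0.586. It was Oasl2, with 31.7 points at 114895221 on chromosome 5, 1705 bp upstream.

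Cytokine and chemokine genes were nearest in 4 of 221 cases (1.81%), close to the background. Apart from Lif, a cytokine of the interleukin-6 family, they included Il15 and Il1rapl1. Il15, a cytokine that sustains natural killer and memory T cells and is made by dendritic cells, had 32.5 points at 82286882 on chromosome 8, 44.7 kb away. Il1rapl1, a synaptic member of the interleukin-1 receptor family, had -25.8 points 43.9 kb downstream.

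Markers of other spleen cells were looked up in the same way. Of 18 B cell markers 2 were nearest to a site (11.1%), where the background of 2.09% gives 0.376. Cr2, the complement receptor gene, had 28.8 points at 195213061 on chromosome 1, and Blk, the gene of a B cell kinase, had -25.5 and -27.2 points at 63343997 and 63346161 on chromosome 14. None of 30 T and natural killer cell, 30 macrophage, monocyte and neutrophil, 13 erythroid and 12 plasmacytoid dendritic cell markers was nearest to a site. Over these 5 lists together, 2 of 103 genes were nearest to a site, close to the background. A further site at 41543642 on chromosome 6 gained 27.9 points inside Tcrb, the T cell receptor beta locus, at a joining segment annotated as a pseudogene. The cell makeup of the libraries was not measured, and its part in any difference was not tested.

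Imprinted genes, which are expressed from 1 parental allele under the control of methylated regions, were nearest in 6 of 57 cases (10.5%), with 10 sites or 4.52 per Mb of their 2.21 Mb. With sites within 1 kb counted once there were 9, or 4.07 per Mb, against 0.818 over all genes. The number of CpGs covered near imprinted genes is likewise unknown. Directions were mixed, with 4 gains and 6 losses. The lists overlap, and the sites of Slc38a4 and Zfp64 are counted again below under solute carrier and zinc finger genes. At the Dlk1 and Dio3 domain of chromosome 12, the authors' deposited table had a gain of 27.1 points upstream of Dlk1, a growth regulator gene, and losses on both sides of Dio3, the gene of a thyroid hormone deiodinase. The Dio3 losses were -34.7 points at 110250491, 28.7 kb upstream, and -27.6 points at 110320172, 39.1 kb downstream. The other sites were the gain beside Blcap, a loss and a gain on either side of the amino acid transporter gene Slc38a4 (-25.2 and 28.4 points), losses of -41.5 and -28.9 points downstream of Zfp64, and an opposite pair downstream of the adaptor gene Gab1 (25.4 and -29.1 points). Gab1 is imprinted in extraembryonic tissue. None of the sites lay within 1000 bp of the genes, by the rule, and which of them touch a control region was not analysed here.

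Neurotrophin and receptor genes, the subject of the series title, were nearest in 3 of 25 cases. The site nearest to Ntf3 was a loss of -29.3 points at 126196296 on chromosome 6, 29.5 kb away on the upstream side. Gdnf, which encodes a glial growth factor, had -30.3 points at 7803429 on chromosome 15, 6.62 kb upstream. None of 47 nuclear receptor and xenobiotic genes was nearest to a site, where the background gives 0.983. Of 59 chromatin and DNA methylation genes there was 1 (1.69%), where the background gives 1.23. It was the lysine methyltransferase gene Setd7, with 32.6 points 26.7 kb upstream.

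The olfactory, vomeronasal and taste receptor genes, which lie in large clusters and are expressed in sensory neurons, were nearest in 24 of 1513 cases (1.59%). They had 30 sites, 18 gains and 12 losses, at 0.740 per Mb. At Olfr743 on chromosome 14 an opposite pair lay 1.12 kb downstream, with -39.8 points at 50535469 and 43.6 points 132 bp further. Zinc finger genes were nearest in 10 of 467 cases (2.14%), led by Zfp101 with 44.1 points at 33406242 on chromosome 17. Ion channel genes were nearest in 6 of 269 cases (2.23%), and 5 of their 6 sites lost methylation. The losses lay beside Kcnip1 (-29.6 points), Kcne1 (-26.3 points), Gabrg3 (-25.7 points), Kcnk9 (-25.4 points) and Glra3 (-25.4 points), and the gain beside Kcnf1 (31.3 points). Solute carrier genes were nearest in 13 of 389 cases (3.34%), with 7 gains and 7 losses. Their largest changes were 38.2 points near the organic ion transporter gene Slc22a22, 37.1 points near Slc25a29, a mitochondrial carrier gene, and -34.1 points near Slco1a6. Adhesion genes were nearest in 3 of 214 cases (1.40%), namely Cldn3, Cntn5 and Cldn34c3. The shares of the zinc finger, ion channel, cytokine and sensory receptor genes lay near that of all protein-coding genes.

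**Figure D4:**
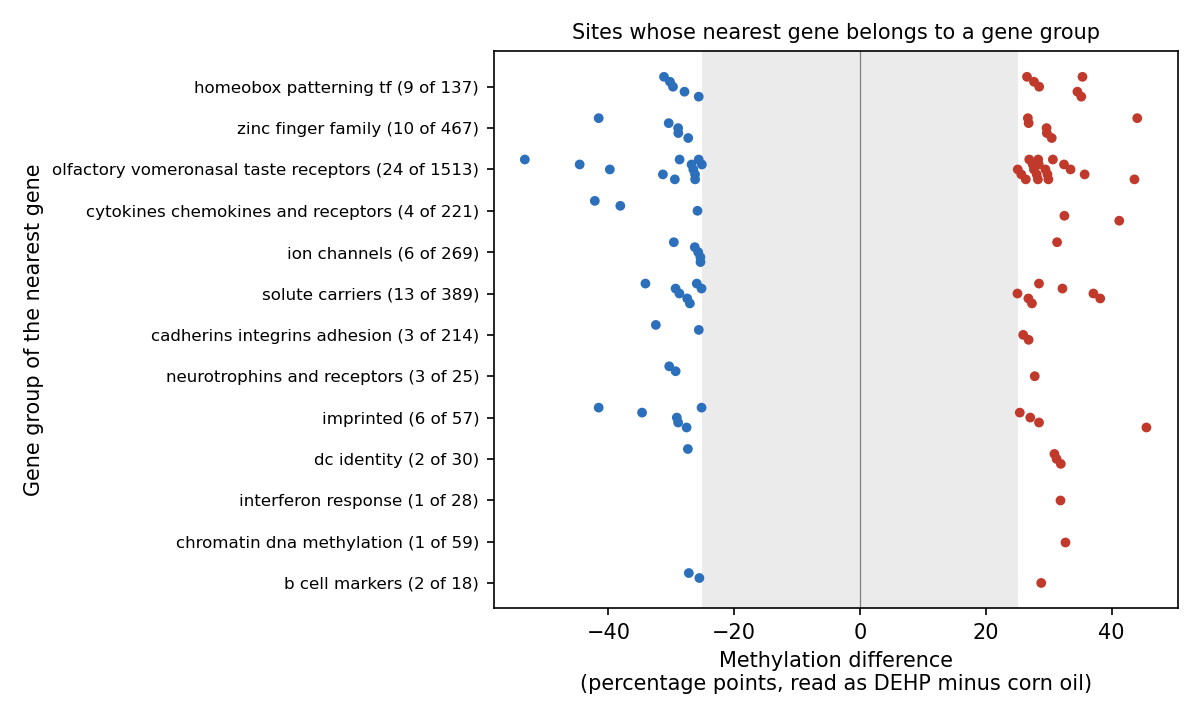
Methylation difference (x axis, percentage points, read as maternal DEHP minus corn oil) of the sites whose nearest gene belongs to each of 13 gene groups (y axis). In brackets stand the genes nearest to a site and the genes on the list, each point is 1 site, and the grey band holds no listed site. Groups with more than 1 nearest gene hold sites of both directions, such as 18 gains and 12 losses beside sensory receptor genes.

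Of the 520 sites, 115 (22.1%) lay inside the span of another annotated gene, while such spans made up 14.7% of the sequence that the rule admits. The difference was not tested, and how many CpGs were covered inside and outside such spans is unknown. LncRNA genes held 87 sites, of which 50 gained, genes annotated as pseudogenes held 20, of which 6 gained, and transcribed pseudogenes held 5, of which 2 gained. A site in overlapping genes is counted under each type. Among the 115 sites, 60 gained and the median size was 28.0 points, against 217 of 405 and 28.4 points outside any gene. Most of these genes are predicted. A named noncoding gene held 23 sites, 9 with gains and 14 with losses.

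Several named lncRNAs lie beside developmental genes or in regulatory loci. Fendrr, an lncRNA of heart and body wall development next to Foxf1, held -30.2 points at 121078687 on chromosome 8. Hdnr, downstream of the heart factor gene Hand2, held 28.9 points at 57347283 on chromosome 8. Mir9-3hg, the host gene of a neuronal miRNA, held 31.8 points at 79508605 on chromosome 7. Tsix, the antisense transcript that restrains Xist in X inactivation, held -28.4 points at 103449087 on the X chromosome. Tincr, an lncRNA of skin differentiation, held -29.9 points at 56551602 on chromosome 17. The others were D5Ertd615e (-26.2 points), Wbscr25 (-25.6 points) and Gm1604a (-26.4 points). Because RRBS reads DNA, a site inside a noncoding gene says nothing of whether that gene is transcribed in these cells.

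Named pseudogenes, transcribed ones among them, included members of the cytochrome P450 families. Cyp2c53-ps on chromosome 19 held an opposite pair of 27.6 and -26.5 points, 261 bp apart, and Cyp2j15-ps on chromosome 4 held an opposite pair of -29.6 and 25.9 points, 130 bp apart. Single sites lay in Btnl7-ps (29.0 points), Vmn2r-ps54 (-28.9 points), Rhox7-ps1 (-32.3 points), Rpl3-ps2 (-27.7 points) and Got2-ps1 (-26.8 points). Reads from near-identical copies can be placed wrongly, and the labels do not say how the authors placed them, so values in pseudogenes and receptor clusters are uncertain.

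The sites lay on all 19 autosomes and on the X chromosome. Their density was highest on chromosomes 4 and 8, with 49 and 37 sites or 1.49 and 1.48 per Mb, and on chromosome 5, with 46 sites or 1.37 per Mb. It was lowest on chromosome 10, with 10 sites or 0.364 per Mb, although chromosome 10 held 115 listed sites in all. The X chromosome had 36 sites, or 0.797 per Mb, below the 0.895 of the autosomes. Of listed sites in general, 8.33% lay on the X chromosome, and of the isolated intergenic sites 6.92%. Gains made up 47.2% of the sites on the X chromosome and 53.7% on the autosomes. Among chromosomes with more than 20 sites, the share that gained ran from 45.5% on chromosome 12 to 65.8% on chromosome 2 (25 of 38). Among those with fewer sites, it ran from 28.6% on chromosome 16 (4 of 14) to 61.5% on chromosome 19 (8 of 13). These differences between chromosomes were not tested, and the number of CpGs covered on each is unknown.

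**Figure D5:**
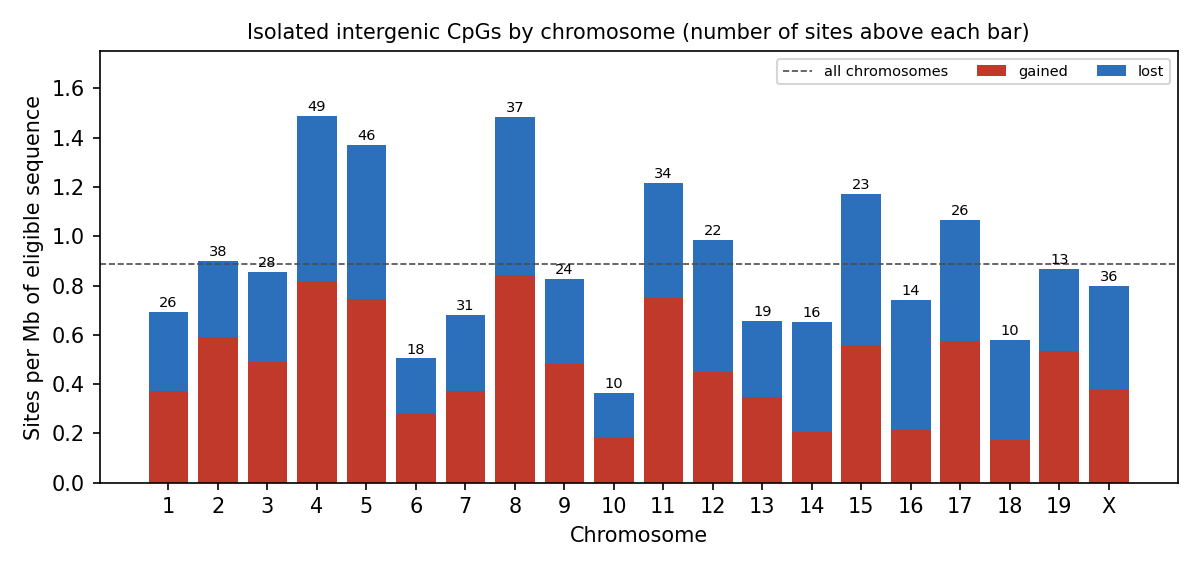
Isolated intergenic sites per Mb of the sequence that the rule admits (y axis) for each chromosome (x axis), split into sites that gained (red) and lost (blue) methylation, with the number of sites above each bar. The dashed line is the density over all chromosomes, 0.888 per Mb. Chromosomes 4, 5 and 8 stand highest and chromosome 10 lowest.

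The limits of the rule divided sites of similar values. The farthest site kept, 49.4 kb from Gm52257, had -36.5 points, and that before it, 49.3 kb from the gene Ankrd34c, had 36.7 points. The first site beyond 50 kb had 25.3 points, 50.3 kb from Nmur2. The sites kept nearest to a gene lay 1028 bp from Nmrk1 (29.1 points) and 1039 bp from Mgat5 (27.5 points). The last sites left out at gene ends were nearest to Foxj1 (-26.3 points) and Nr2f2 (27.9 points), at 939 and 931 bp from a protein-coding or lncRNA span. The closest spacing kept was 107 bp, in the group beside Cd209a, and the widest left out was 100 bp, beside Alkbh1, where 26.5 and -27.8 points were again opposite.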

How the data were processed

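RRBS libraries of 12 samples were compared by the authors. The tool was methylKit and the build GRCm38 (mm10), per the submitters' processing notes. Not given in the sources used here were the aligner, the coverage minimum and the form of the test. Per the file headers, the deposited table holds the position of each site, its methylation difference, its p-value and its q-value. The difference was treated as a signed score in percentage points, as deposited. No column gave a value or a coverage per library, so the depth is unknown, and no fit, replicate check or test over samples was made.

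Sites were placed against gene spans of the RefSeq table of GRCm38.p6 with Python 3.11.15 and pandas 2.3.3, and figures were drawn with matplotlib 3.10.9. The placement was tested on simulated sites. Eligible sequence is every base outside protein-coding spans, within 50 kb of one and outside the gene-end windows. Strand came from RefSeq start windows. Of several windows the outermost was used. Members of lists were matched by symbol.

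The sites and gene lists were chosen with earlier results of these data known. Named are the 10 largest gains and losses, genes nearest to at least 3 sites, list members (up to 5 by size, all for immune, imprinted, neurotrophin, nuclear receptor and chromatin lists), sites in named noncoding genes, and the 5 sites nearest to and farthest from a gene. Of these last 10, the few that mark a limit of the rule are described. Runx1 and the genes with 2 sites were added after their values were seen. A few of the sites so named are not reported here.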

Additional observations from a re-analysis of the deposited data

How the results depend on the processing

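Each of 7 summary values was recomputed under 8 alternatives, or 7 for the share on the X chromosome, and 41 of the 55 values stayed within 1.5 times the count or within the 95% interval of the value. The share of sites that gained stayed within its interval under all 8, from 52.0 to 55.8%. Most alternatives keep a part of the same 520 sites or add others to them. The sets thus overlap, and a value that stayed is no independent support. The 14 that moved follow mostly from fewer or other sites being kept. Some of these moves were fixed by the alternative itself. A cut on size must raise the median size, and a changed distance limit must shift the median distance. The 41 of 55 is therefore no measure of stability. Within 20 kb there were 310 sites with 278 nearest genes and a median distance of 8.35 kb. Up to 100 kb the median distance was 21.65 kb, and with 5000 bp around gene ends left out it was 20.04 kb. At 30 points or more there were 181 sites with 166 nearest genes, a median size of 33.6 points and 17.7% inside another gene (22.1% among all 520), for which the cause was not tested. At 40 points or more there were 25 sites with 24 nearest genes, a median size of 44.1 points, a median distance of 23.8 kb and 4.0% on the X chromosome (1 of 25 sites). No paired analysis was possible because the result comes from no test and the columns carry no library, and leaving out a library was not possible for the same reason.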
